A study of Mus musculus with 32 samples.

Results

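The 10 mature microRNAs described here are made from hairpins upstream of the deleted miR-379 to miR-410 cluster: miR-770-3p, miR-337-3p, miR-540-3p, miR-433-3p, miR-127-3p, miR-434-5p, miR-434-3p, miR-136-5p, miR-136-3p and miR-1188-5p. They were followed across embryonic stem cells and neurons, were taken by name from the microRNAs whose hairpins lie between Meg3 and Mir379, and make up 10 of the 1907 mature microRNA accessions that were counted. All 10 had enough counts to be tested in every comparison of the small RNA libraries.

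MicroRNAs are short RNAs that Argonaute proteins carry to partly complementary sites in messenger RNAs, where pairing of the seed (bases 2 to 8 of the microRNA) lowers the output of the target. The hairpins described here lie in the imprinted Dlk1-Dio3 domain. Its noncoding RNAs (Meg3, the antisense transcript of Rtl1, Rian and Mirg) are expressed from the maternal chromosome, and its protein-coding genes Dlk1, Rtl1 and Dio3 mainly from the paternal one. The hairpins of miR-127, miR-433, miR-434, miR-136 and miR-431 lie on the strand opposite Rtl1, a retrotransposon-derived gene needed in the placenta, so their products are fully complementary to the Rtl1 messenger RNA and can direct its cleavage. miR-127 and miR-434 are also known as abundant microRNAs of brain.

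The cells were hybrid mouse embryonic stem cells (ESCs, day 0, kept in serum with LIF) and induced neurons made from them in 10 days by doxycycline induction of an Ngn2 transgene under a TetO promoter (iNs, day 10). The 4 groups with small RNA libraries were deletion iNs and deletion ESCs of genotype Mirg(Delta/+), which lack the maternal miR-379 to miR-410 cluster, and control iNs and control ESCs of genotype Mirg(fl/+), which carry a floxed allele. Each group had 3 libraries, lettered A to C, and 3 rRNA-depleted RNA-seq libraries from the same kinds of cells. The sources used here do not say whether letters are separate clones or differentiations, so the p-values measure the spread between these libraries, which may be technical.

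The mature sequences, from RefSeq on GRCm38.p6 (the assembly that mm10 denotes), are printed 5′ to 3′ with the seed in capitals because the seed is what separates the 10 microRNAs as regulators. They are ordered along chromosome 12, and all lie on the plus strand.
miR-770-3p: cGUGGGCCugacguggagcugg
miR-337-3p: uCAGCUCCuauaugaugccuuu
miR-540-3p: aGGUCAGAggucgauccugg
miR-433-3p: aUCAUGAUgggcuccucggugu
miR-127-3p: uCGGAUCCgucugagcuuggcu
miR-434-5p: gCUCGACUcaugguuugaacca
miR-434-3p: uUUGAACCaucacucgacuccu
miR-136-5p: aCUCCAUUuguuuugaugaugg
miR-136-3p: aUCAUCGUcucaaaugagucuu
miR-1188-5p: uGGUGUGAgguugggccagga
No seed is shared within the set. Among the other mouse mature sequences that were searched, only miR-6915-5p shares one, that of miR-540-3p. The search did not cover every chromosome. The 10 microRNAs are therefore not copies of a family, although they come from neighbouring hairpins.

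The hairpin of miR-770 (chr12:109563692-109563785) lies inside Meg3. Those of miR-337 (chr12:109585789-109585885), miR-540 (chr12:109586080-109586146), miR-433 (chr12:109591715-109591838), miR-127 (chr12:109592846-109592915), miR-434 (chr12:109594506-109594599) and miR-136 (chr12:109595327-109595388) lie inside the span of Rtl1. That of miR-433 is also inside the noncoding transcript 6430411K18Rik. The hairpin of miR-1188 (chr12:109611822-109611941) lies inside Rian, 97119 bases from Mir379, and that of miR-770 is farthest, at 145275 bases. All 8 hairpins are therefore outside the deleted interval. The hairpin of miR-337 overlaps Mir3544 and that of miR-136 overlaps Mir3071, both annotated on the opposite strand.

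The small RNA libraries held 3038112 to 4216346 counts each. Mature microRNAs took 29.02 to 30.12% of them in deletion iNs, 36.99 to 38.64% in control iNs, 21.37 to 25.9% in deletion ESCs and 18.02 to 27.93% in control ESCs. Between libraries of 1 group the chi-square per degree of freedom was 12.42 to 102.43 in ESCs and 11.12 to 43.65 in iNs, and no 2 libraries agreed within sampling noise. Marker microRNAs followed the labels: miR-137-3p, a neuronal microRNA, had 32840 to 44476 CPM (counts scaled to 1000000 mature microRNA counts per library, after TMM adjustment of the library sizes) in deletion iNs, 32607 to 36188 in control iNs, 39.7 to 49.3 in deletion ESCs and 52.7 to 62.6 in control ESCs. The stem cell microRNA miR-294-3p had 20.4 to 30.4 CPM in deletion iNs, 33.8 to 73.9 in control iNs, 1775 to 2572 in deletion ESCs and 2401 to 3658 in control ESCs.

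Together the 10 microRNAs held 6.004, 6.032 and 5.972% of mature counts in deletion iNs and 4.586, 4.975 and 5.287% in control iNs. They held 2.88, 2.764 and 2.54% in deletion ESCs and 2.856, 3.165 and 3.009% in control ESCs. The share was higher in every iN library than in every ESC library of the same genotype (difference 3.27 percentage points in deletion cells and 1.94 in control cells). The exact two-sided permutation test gave p = 0.1 for each, the smallest p that 3 against 3 libraries allow. The share in deletion iNs was also above that in control iNs without overlap (difference 1.05, exact permutation p = 0.1). In control iNs the deleted cluster made up 12.1 to 12.79% of the mature counts, and with it left out of the denominator the difference was 0.35 percentage points, with overlapping libraries (exact permutation p = 0.4). In ESCs the share differed by −0.28 percentage points between deletion and control, with overlap (exact permutation p = 0.2). With the cluster left out of the denominator it was 2.73 ± 0.17% in deletion ESCs and 3.29 ± 0.18% in control ESCs, without overlap (difference −0.56, exact permutation p = 0.1).

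miR-127-3p was the most abundant in all 4 groups. It had 30162, 30100 and 32625 CPM in deletion iNs, 26659, 27199 and 28125 in control iNs, 13963, 13819 and 13170 in deletion ESCs and 14041, 18583 and 16735 in control ESCs. It alone took 49.3% of the summed counts of the 10 in deletion iNs, 49.3% in control iNs, 56.3% in deletion ESCs and 56.8% in control ESCs. CPM here is not corrected for how well each sequence is captured, so the order of levels between microRNAs describes these libraries.

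Both arms of miR-434 came next in iNs. miR-434-5p had 16729, 15291 and 15472 CPM in deletion iNs, 13227, 13083 and 14363 in control iNs, 4919, 6122 and 5711 in deletion ESCs and 4620, 5630 and 6259 in control ESCs. miR-434-3p had 8448, 7650 and 7735 CPM in deletion iNs, 8111, 8574 and 7797 in control iNs, 1869, 1698 and 1934 in deletion ESCs and 2221, 2486 and 2407 in control ESCs. The genotypes overlapped in miR-434-3p among iNs and stood apart among ESCs, where all 3 deletion libraries were lower.

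The order below these differed between the cell types. In deletion iNs miR-136-3p followed (4153 ± 366 CPM, mean ± SD, n = 3). Then came miR-136-5p (927.4 ± 51.6) and miR-770-3p (873.3 ± 23.9), miR-337-3p (694.8 ± 91.3) and miR-540-3p (651 ± 24.5), and miR-1188-5p (397.6 ± 18.9) and miR-433-3p (357.6 ± 89.1), where the libraries of each pair overlapped. In control iNs miR-136-3p followed (3351 ± 626 CPM), then miR-337-3p (742.4 ± 89.8), miR-136-5p (697.2 ± 149) and miR-770-3p (676.7 ± 58.8), whose libraries overlapped, then miR-540-3p (387.3 ± 20), miR-433-3p (290.7 ± 27) and miR-1188-5p (217.9 ± 33). In deletion ESCs miR-434-3p overlapped with miR-136-3p (1677 ± 218 CPM), and miR-136-5p (486.4 ± 174) with miR-337-3p (455.8 ± 41) and miR-540-3p (324 ± 42.1). There miR-433-3p (131.6 ± 33), miR-1188-5p (82.42 ± 5.73) and miR-770-3p (28.59 ± 10.5) came last, without overlap. In control ESCs miR-136-3p (2292 ± 300 CPM) overlapped with miR-434-3p, as did miR-136-5p (841.3 ± 355) and miR-337-3p (778.7 ± 98.7), and miR-433-3p (289.2 ± 101) and miR-540-3p (281.7 ± 58). miR-1188-5p (64.43 ± 5.88) and miR-770-3p (27.19 ± 8.66) were the lowest there. miR-770-3p was thus in the middle of the order in iNs and last in ESCs of both genotypes.

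**Figure D1:**
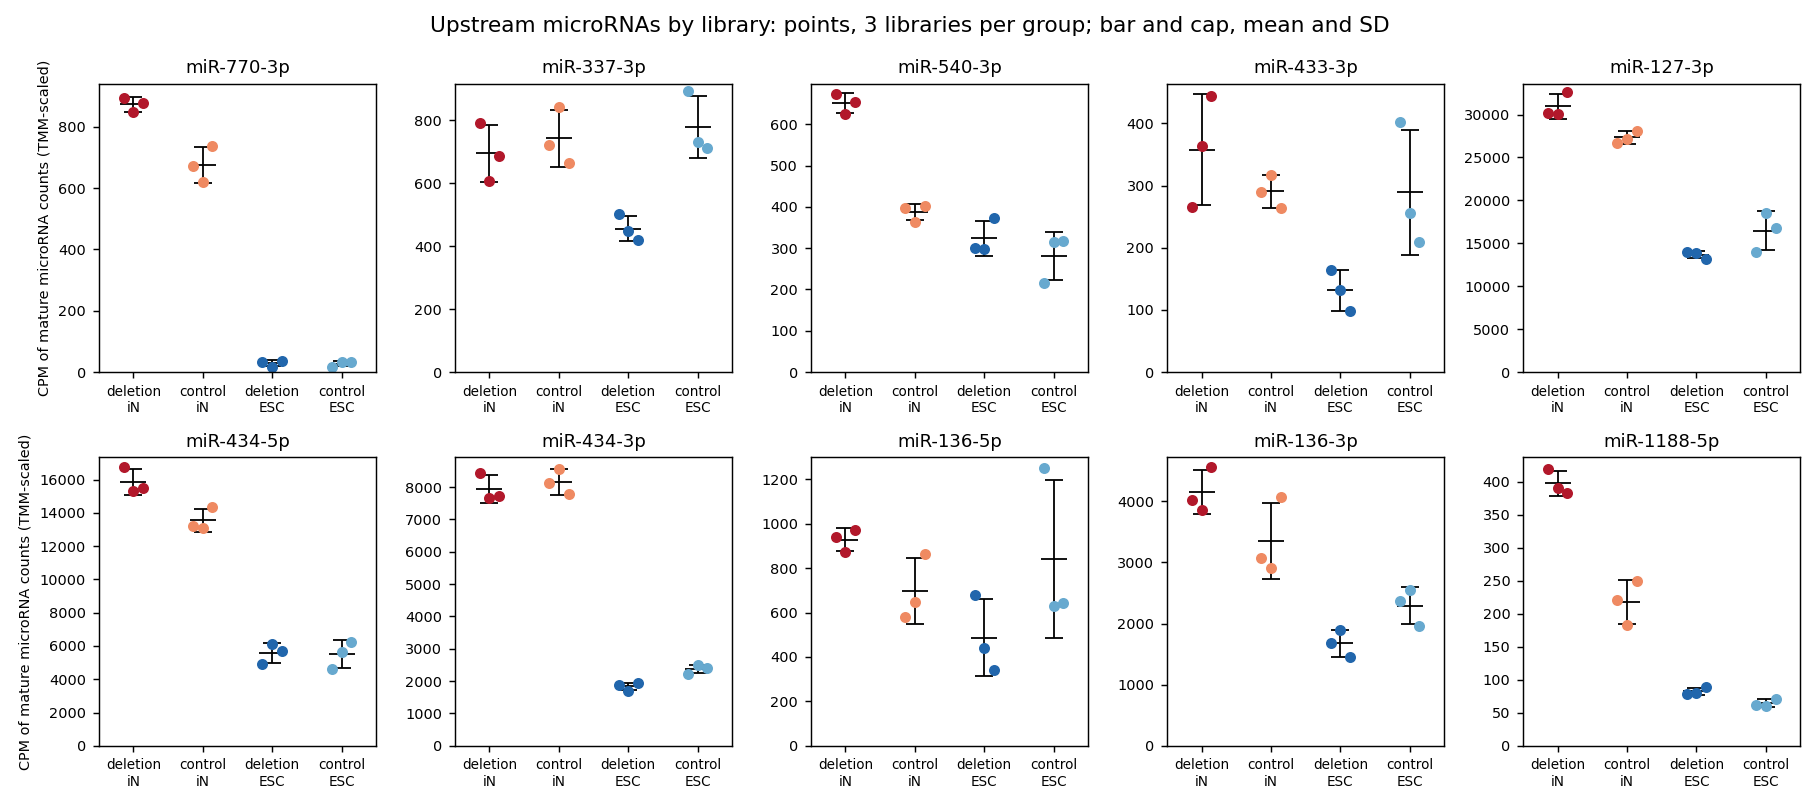
CPM over mature microRNA counts (TMM-scaled over the 12 libraries) of each of the 10 microRNAs in deletion iN, control iN, deletion ESC and control ESC libraries, on linear axes from 0. Points are libraries A to C from left to right, and bars and caps the mean and SD; miR-770-3p sits at 895.2, 847.8 and 877 CPM in deletion iNs and between 16.55 and 35.8 CPM in all 6 ESC libraries.

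The first question was which of the upstream microRNAs differ between neurons and the stem cells they were made from. All 10 were higher in deletion iNs than in deletion ESCs, and 7 were higher in control iNs than in control ESCs, with none lower (edgeR quasi-likelihood test, Benjamini-Hochberg adjusted p under 0.05 over all mature microRNAs tested, 6 libraries). Of all microRNAs tested, 41.3% were higher and 46.6% lower in the deletion pair, and 41.5% were higher and 44.2% lower in the control pair, so most microRNAs differ between these cells. The median log2 fold change of the 10 was 1.31 in the deletion pair and 0.64 in the control pair, where the medians over all tested were −0.249 and −0.24. In bulk samples, fewer cells of a type and less RNA per cell cannot be told apart.

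miR-770-3p, the product of the hairpin inside Meg3, differed most. It had 895.2, 847.8 and 877 CPM in deletion iNs against 33.42, 16.55 and 35.8 in deletion ESCs, and 671.1, 620.9 and 738.1 CPM in control iNs against 17.18, 32.08 and 32.3 in control ESCs. Every iN library was above every ESC library, as for 42.4% of all microRNAs tested in deletion cells and 42.8% in control cells, by 28.6-fold in deletion cells (log2 fold change 4.84 ± 0.23 SE) and 24.3-fold in control cells (4.60 ± 0.24). The difference was log2 4.34 to 5.07 in the alternative settings of both pairs that tested the mature sequence. Summing both arms with the reads on the hairpin itself gave smaller values. These were 4.16 ± 0.19 in deletion cells and 3.78 ± 0.14 in control cells.

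miR-1188-5p, from the hairpin inside Rian, had 418.9, 391.2 and 382.8 CPM in deletion iNs against 78.78, 79.45 and 89.02 in deletion ESCs, and 221.1, 183.5 and 249.2 CPM in control iNs against 61.36, 60.72 and 71.22 in control ESCs. No library of the iNs reached down to the ESCs. The log2 fold change was 2.20 ± 0.18 in deletion cells and 1.75 ± 0.22 in control cells. miR-434-3p rose by 2.05 ± 0.14 in deletion cells and 1.78 ± 0.14 in control cells. miR-434-5p rose by 1.44 ± 0.14 in deletion cells and 1.30 ± 0.16 in control cells. miR-127-3p rose less, by 1.12 ± 0.14 in deletion cells and 0.73 ± 0.14 in control cells.

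Of the remaining 5, miR-136-3p (1.25 ± 0.16 in deletion cells, 0.56 ± 0.16 in control cells) and miR-540-3p (0.94 ± 0.16 and 0.45 ± 0.19) rose in both genotypes, and the other 3 passed in deletion cells and not in control cells; the difference between genotypes is tested by the interaction, reported after the deletion comparisons. The rise of miR-540-3p in control cells lost its call without control ESC library A (log2 fold change 0.25, adjusted p = 0.179, edgeR) or without control ESC library B (0.45, adjusted p = 0.0641). miR-433-3p (1.38 ± 0.24), miR-136-5p (0.86 ± 0.21) and miR-337-3p (0.54 ± 0.16) rose in deletion cells. In control cells their log2 fold changes were 0.01 ± 0.22, −0.27 ± 0.25 and −0.07 ± 0.16 (edgeR adjusted p = 0.964, 0.32 and 0.664), with overlapping libraries. In deletion cells, miR-337-3p lost its call without deletion ESC library B (0.35) or C (0.30), and miR-136-5p without deletion ESC library B (0.59).

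**Figure D2:**
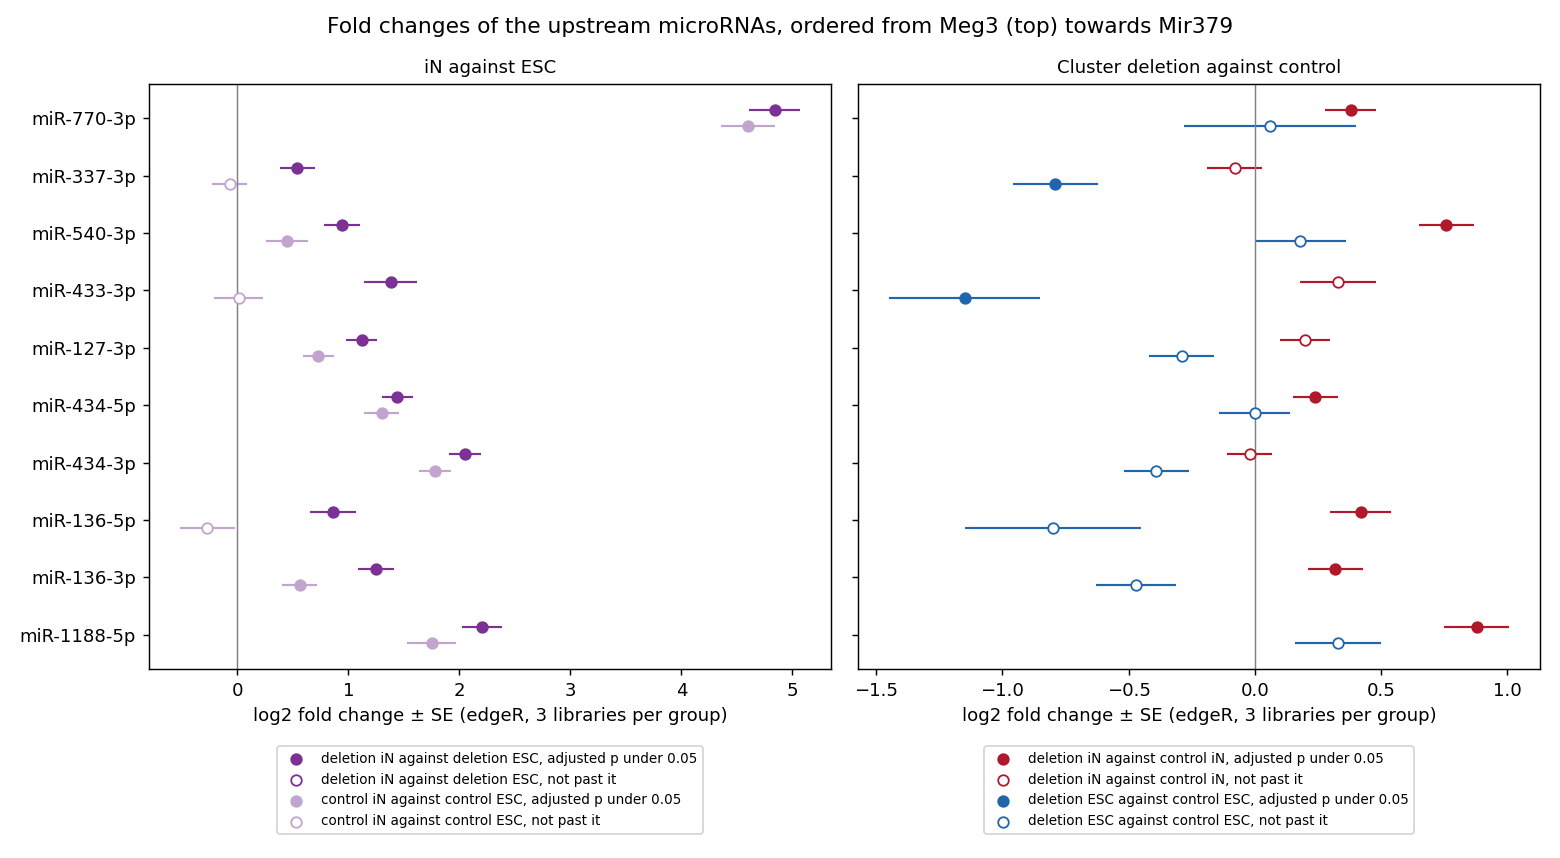
Log2 fold changes with SE of the 10 microRNAs, ordered from Meg3 at the top towards Mir379. The left panel sets iNs against ESCs of the deletion genotype (dark) and of the control genotype (light), and the right panel sets deletion against control in iNs (red) and in ESCs (blue); filled points have an adjusted p under 0.05, which holds for 10, 7, 6 and 2 microRNAs in that order.

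The second question was whether the upstream microRNAs change when the neighbouring cluster is deleted. In iNs, 6 of the 10 were higher in deletion than in control libraries and none was lower, at a background of 16.9% higher and 24.2% lower over all microRNAs tested (edgeR quasi-likelihood test, 3 libraries per group). Without the 51 cluster microRNAs, all of which fell, 19.1% of the rest were higher and 14.1% lower. The median log2 fold change was 0.32 for the 10 and −0.027 for all tested. Every rise was under 2-fold. Cell type markers also differed between these libraries. The summed CPM of 4 stem cell microRNAs was 412 to 465 in deletion iNs and 695 to 1012 in control iNs, and 3 of the 4 (miR-294-3p, miR-295-3p and miR-302b-3p) were lower in every deletion library. That of 4 neuronal microRNAs was 37355 to 49504 in deletion iNs and 36103 to 39835 in control iNs, and miR-9-5p and miR-9-3p were higher in every deletion library. In RNA-seq the summed CPM of 6 stem cell transcripts was 4.84 to 5.63 in deletion iNs and 8.7 to 9.24 in control iNs. Of these 6, 3 (Pou5f1, Zfp42 and Esrrb) were lower in every deletion library, and Esrrb made up most of the sum. Sox2 had the higher mean in deletion iNs (0.5639 CPM against 0.1154 in control iNs), with overlapping libraries. That of 7 neuronal transcripts was 5399 to 5506 in deletion iNs and 5196 to 5350 in control iNs. Of these 7, 4 were higher and 1 (Stmn2) lower in every deletion library. Stmn2 had 1434, 1477 and 1408 CPM in deletion iNs against 1536, 1645 and 1587 in control iNs. The astroglial markers Gfap (0 in all 6 iN libraries), Aqp4, Aldh1l1 and S100b summed to 5.02 to 6 CPM in deletion iNs and 4.15 to 5.86 in control iNs. Fibroblast transcripts, mostly Thy1, summed to 55.8 to 63.9 CPM in deletion iNs and 35.2 to 46.7 in control iNs. Those of endoderm and mesoderm summed to 1.67 to 2.05 CPM in deletion iNs and 1.54 to 1.8 in control iNs. The part of these differences in the rises was not tested.

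miR-1188-5p had 418.9, 391.2 and 382.8 CPM in deletion iNs against 221.1, 183.5 and 249.2 in control iNs, with no overlap. Its log2 fold change was 0.88 ± 0.13 (1.84-fold, edgeR adjusted p = 2.62e-06). miR-540-3p had 673.8, 625.1 and 654.1 CPM in deletion iNs against 396.2, 364.4 and 401.4 in control iNs, and again the deletion libraries were all higher. Its log2 fold change was 0.76 ± 0.11 (1.7-fold, edgeR adjusted p = 8.5e-07). These 2 kept their calls in all 14 alternative settings (0.61 to 1.00 for miR-1188-5p and 0.49 to 0.81 for miR-540-3p).

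The other 4 rises were smaller. miR-136-5p had 938.3, 871.3 and 972.7 CPM in deletion iNs against 580.5, 645.8 and 865.2 in control iNs (log2 fold change 0.42 ± 0.12). miR-770-3p had 895.2, 847.8 and 877 CPM against 671.1, 620.9 and 738.1 (0.38 ± 0.10), and in both the lowest deletion library was above the highest control library, as in 21% of all microRNAs tested. miR-136-3p had 4027, 3866 and 4565 CPM in deletion iNs against 3079, 2906 and 4067 in control iNs (0.32 ± 0.11), where control library C lay between the deletion libraries, and miR-434-5p rose by 0.24 ± 0.09. All 4 lost their calls without control iN library A, without control iN library B, with the spread estimated over all 12 libraries, or with counts scaled to all small RNA features, settings that leave the count of rises at 2. miR-136-3p and miR-434-5p also lost theirs with DESeq2's size factors, DESeq2's Wald test, no filter on low counts or TMM without the cluster, where the count was 4.

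miR-127-3p (0.20 ± 0.10, edgeR adjusted p = 0.0979) and miR-433-3p (0.33 ± 0.15, adjusted p = 0.0874) did not pass. miR-434-3p (−0.02 ± 0.09) and miR-337-3p (−0.08 ± 0.11) had values near 0. Mature microRNAs were a smaller part of all counts in deletion iNs than in control iNs, as given above. Scaling to all features turned 73 higher and 105 lower microRNAs into 32 higher and 178 lower, moved the median of all by −0.269, and put the median of the 10 at 0.05 against −0.292 for all tested, with miR-434-3p (−0.29) and miR-337-3p (−0.35) lower. In the authors' deposited table, 3 of the 10 were higher in deletion iNs and none lower at an adjusted p under 0.05: miR-1188-5p (log2 fold change 0.93), miR-540-3p (0.81) and miR-770-3p (0.43). The share of all microRNAs called in that table was not counted, so 3 of 10 has no background beside it.

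In ESCs, 2 of the 10 were lower in deletion than in control ESCs and none higher, at a background of 13.8% lower and 2.44% higher over all tested, and of 2.76% lower without the cluster microRNAs (edgeR quasi-likelihood test, 3 libraries per group). The median log2 fold change was −0.34 for the 10 and −0.035 for all tested. miR-433-3p had 164.7, 131.3 and 98.7 CPM in deletion ESCs against 402.5, 255.5 and 209.5 in control ESCs, a fall of 1.15 ± 0.30 on the log2 scale (edgeR adjusted p = 0.0281). miR-337-3p had 500.5, 446.9 and 419.9 CPM in deletion ESCs against 892.2, 731 and 713 in control ESCs, and fell by 0.79 ± 0.17 (adjusted p = 0.00863). In both the groups stood apart. Neuronal microRNAs were also lower: the 4 markers summed to 1499 to 1641 CPM in deletion ESCs and 1778 to 1857 in control ESCs, and each of the 4 was lower in every deletion library. The 4 stem cell microRNAs summed to 29849 to 43579 CPM in deletion ESCs and 40425 to 56193 in control ESCs, of which miR-302b-3p was lower in every deletion library. In RNA-seq, stem cell transcripts summed to 1732 to 1880 CPM in deletion ESCs and 1905 to 1999 in control ESCs, and neuronal transcripts to 179 to 191 CPM in deletion ESCs and 161 to 168 in control ESCs. Of the 6 stem cell transcripts 3 were lower, and of the 7 neuronal ones 3 were higher, in every deletion library. Fibroblast transcripts, mostly Col1a1, summed to 90.7 to 100 CPM in deletion ESCs and 53 to 61.4 in control ESCs. Endoderm and mesoderm transcripts summed to 16.3 to 18.5 CPM in deletion ESCs and 14.6 to 14.7 in control ESCs. Their part in the falls was not tested.

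Of the 8 that did not pass in ESCs, miR-136-5p (−0.80 ± 0.35), miR-136-3p (−0.47 ± 0.16), miR-434-3p (−0.39 ± 0.13) and miR-127-3p (−0.29 ± 0.13) had negative values, and miR-136-3p, miR-434-3p and miR-127-3p were lower in all 3 deletion libraries. With all 12 libraries in 1 fit miR-136-5p, miR-136-3p and miR-434-3p passed (edgeR adjusted p = 0.044, 0.0485 and 0.0264). With the library letter as a replicate block these and miR-127-3p passed. That put 6 of the 10 lower, where 119 of all 450 tested were lower and 60 higher. DESeq2's Wald test added miR-434-3p (adjusted p = 0.0327), and no filter on low counts added miR-136-5p (edgeR adjusted p = 0.000492). miR-434-5p (0.00 ± 0.14), miR-770-3p (0.06 ± 0.34), miR-540-3p (0.18 ± 0.18) and miR-1188-5p (0.33 ± 0.17) were at or above 0. miR-1188-5p was higher in all 3 deletion libraries, at 78.78, 79.45 and 89.02 CPM in deletion ESCs against 61.36, 60.72 and 71.22 in control ESCs, but did not pass (adjusted p = 0.222, edgeR). Over all tested, 24% of microRNAs had all 3 deletion ESC libraries below all 3 control libraries, and 12.2% above. Without control ESC library A, control ESC library B or deletion ESC library C, only miR-337-3p of the 10 was lower, with miR-433-3p at −0.77, −1.17 and −0.96; without deletion ESC library B none passed (miR-433-3p −1.14, miR-337-3p −0.77). Scaling to all features, which moved the median of all by 0.181, left miR-433-3p lower and put miR-337-3p at −0.58 (edgeR adjusted p = 0.261).

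**Figure D3:**
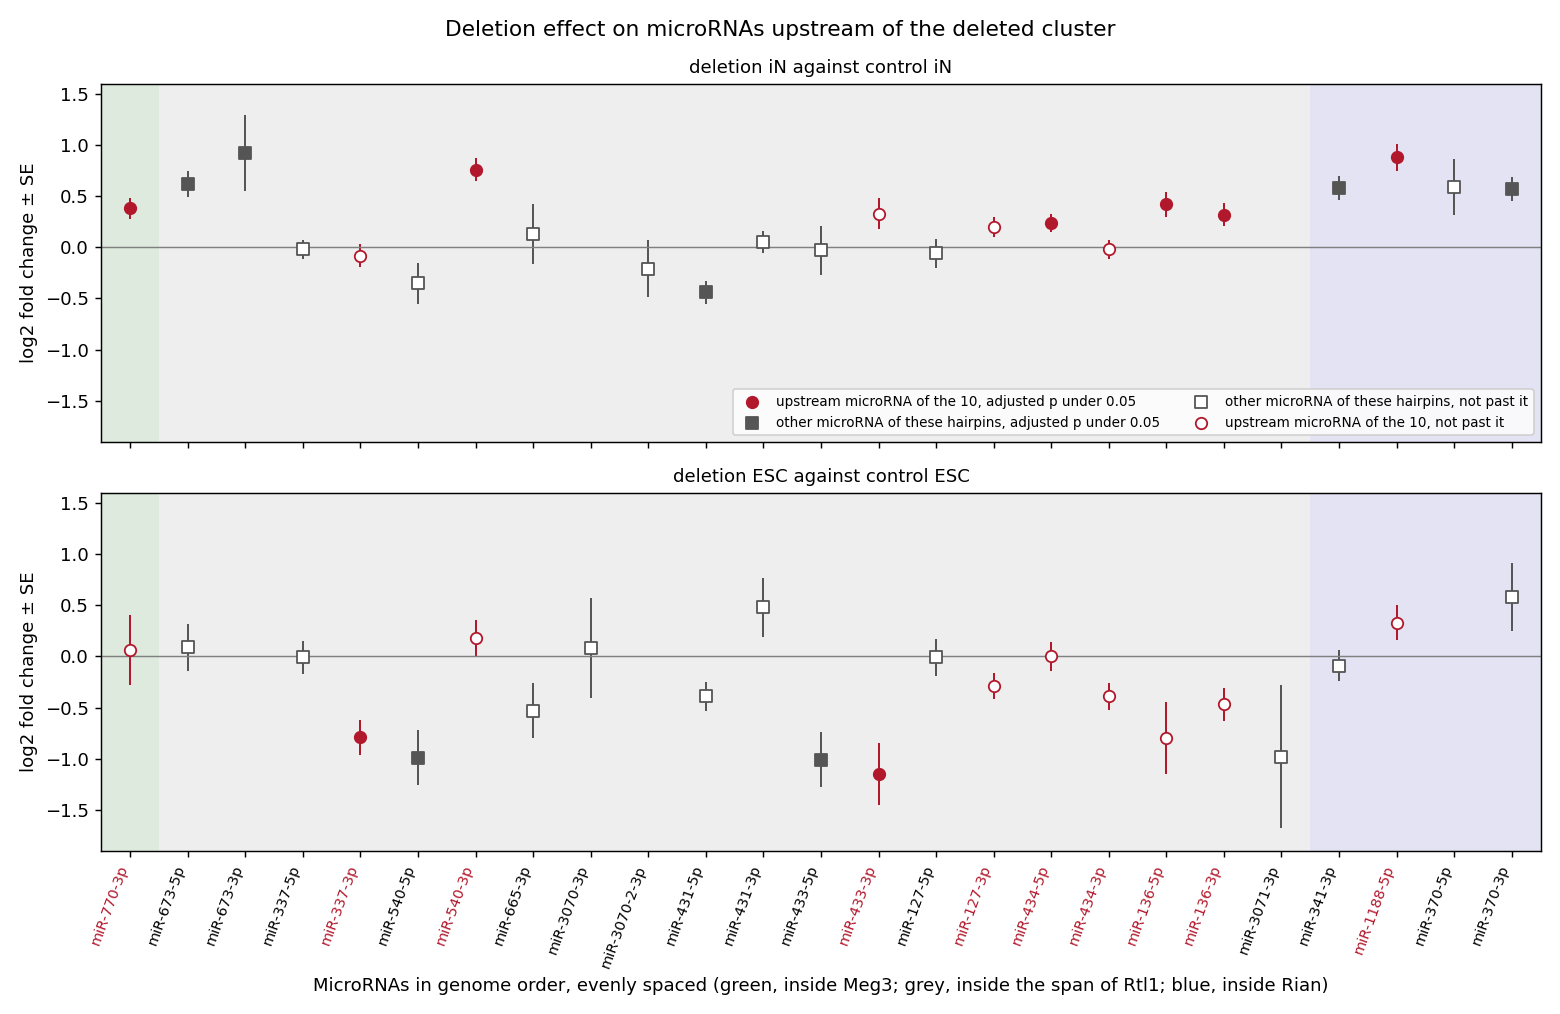
Log2 fold change with SE of deletion against control, in iNs (top) and ESCs (bottom), for every microRNA of the upstream hairpins that was tested, in genome order and evenly spaced. Circles with red names are the 10 microRNAs described here, squares are other microRNAs of these hairpins, and filled symbols have an adjusted p under 0.05. In iNs the microRNAs inside Rian have values of 0.57 to 0.88. Inside the span of Rtl1, miR-540-3p, miR-673-5p and miR-673-3p lie at 0.76, 0.62 and 0.92, and miR-337-3p, miR-434-3p and miR-431-5p at −0.08, −0.02 and −0.44.

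The difference of the deletion effect between the cell types was tested as an interaction over all 12 libraries. It was positive for all 10 microRNAs (median 0.54, range 0.20 to 1.42, with a median of −0.094 over all 541 tested), and 2 passed, at a background of 2.03% positive and 3.51% negative. For miR-433-3p the difference was 1.42 ± 0.34 (edgeR adjusted p = 0.0206): the deletion value was 0.33 in iNs and −1.15 in ESCs. For miR-136-3p it was 0.76 ± 0.22 (adjusted p = 0.0487), from 0.32 in iNs and −0.47 in ESCs. miR-136-5p (1.19 ± 0.37) and miR-337-3p (0.67 ± 0.21) missed the threshold (adjusted p = 0.063 each, edgeR). Scaled to all features, which moved the median of all microRNAs by −0.415, none passed, the median of the 10 was 0.13 and the split over all microRNAs was 1 positive and 47 negative in place of 11 and 19. Without control ESC library A, deletion ESC library B, control iN library A, deletion iN library B or deletion iN library C, none passed either.

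The arms of a hairpin are cut from the same precursor, and the ratio of 5p to 3p counts within a library does not depend on how libraries are scaled. For miR-434 the 5p arm was in excess in all 12 libraries. Its 5p to 3p ratio was 1.98, 2 and 2 in deletion iNs, 1.63, 1.53 and 1.84 in control iNs, 2.63, 3.6 and 2.95 in deletion ESCs and 2.08, 2.26 and 2.6 in control ESCs. All 6 iN libraries were below all 6 ESC libraries (mean log2 ratio 0.86 ± 0.17 against 1.4 ± 0.28, SD, n = 6; exact two-sided permutation p = 0.00216, the smallest that 6 against 6 allow, and 0.0389 adjusted over 18 tests of 6 hairpins).

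For miR-136 the 3p arm was in excess. The mean log2 ratio of 5p to 3p was −2.22 ± 0.11 in iNs and −1.68 ± 0.49 in ESCs (SD, n = 6; exact permutation p = 0.00433, adjusted 0.039), with overlapping libraries. ESC library A of each genotype stood apart, at −1.31 in deletion and −0.92 in control, against −2.11 and −2.10 in the other deletion ESC libraries and −2.01 and −1.61 in the other control ESC libraries.

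Between genotypes, the arms of all 6 hairpins were compared with 3 libraries per group, where the exact test cannot go below p = 0.1. The libraries of miR-127, miR-433 and miR-136 overlapped in both cell types. The log2 ratio of miR-434 was higher with the deletion in iNs (0.99 ± 0.01 against 0.73 ± 0.14, SD, n = 3) and in ESCs (1.6 ± 0.23 against 1.2 ± 0.16), and the libraries did not overlap in either (exact permutation p = 0.1 each, 0.191 adjusted over 18). The log2 ratio of miR-540 was lower with the deletion in iNs (−3.18 ± 0.27 against −2.05 ± 0.19) and in ESCs (−1.95 ± 0.47 against −0.72 ± 0.58), again without overlap. In iNs the 3p arm of miR-540 rose as described, while its 5p arm had 92.15, 64.35 and 63.05 CPM in deletion iNs against 86.77, 102.1 and 92.63 in control iNs (log2 fold change −0.35 ± 0.20, edgeR adjusted p = 0.161). The log2 ratio of miR-337 was higher with the deletion in ESCs (1.46 ± 0.27 against 0.67 ± 0.46) and overlapped in iNs. The hairpins of miR-127, miR-337, miR-433 and miR-540 were added to this comparison after their values were seen.

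**Figure D4:**
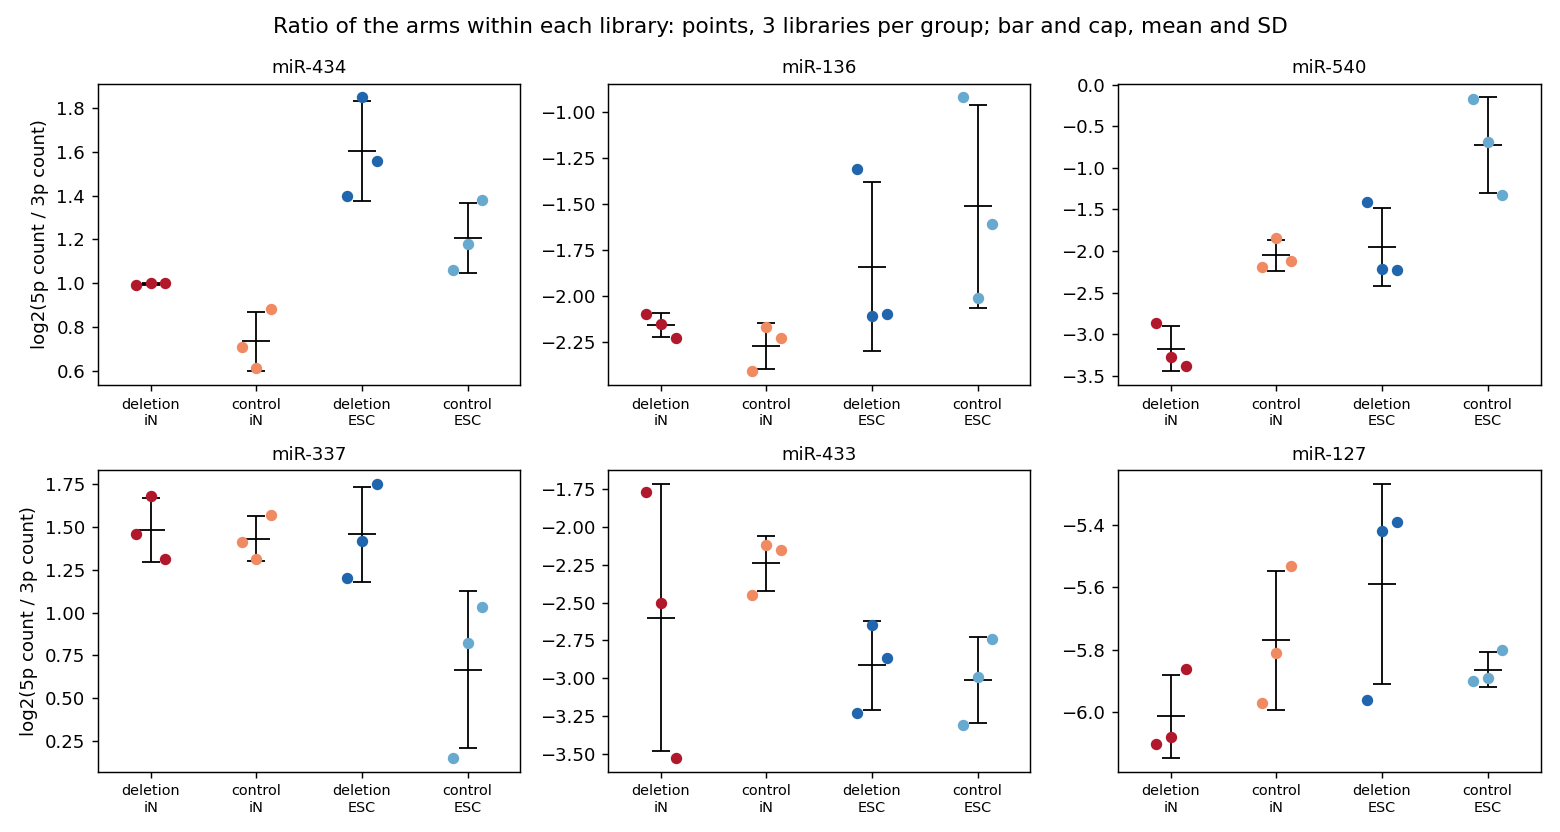
Log2 ratio of 5p to 3p counts within each library for 6 hairpins of the 10 microRNAs, in deletion iN, control iN, deletion ESC and control ESC libraries; each panel has its own axis, points are libraries A to C from left to right, and bars and caps the mean and SD. For miR-434 the iN libraries lie between 0.61 and 1.00 and the ESC libraries between 1.06 and 1.85; for miR-540 the deletion libraries lie below the control libraries in each cell type.

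Part of the reads of each hairpin were counted on the hairpin itself and on neither arm. That part was 46.3 to 49.3% for miR-540 in deletion iNs, 53 to 56.3% in control iNs, 46.3 to 58.2% in deletion ESCs and 40.5 to 51.1% in control ESCs. For miR-434 it was 5.84 to 6.1% in deletion iNs and 6.7 to 6.86% in control iNs. For miR-770 it was 29.7 to 30.6% in deletion iNs and 35.3 to 36.4% in control iNs. The miR-770 part was larger in ESCs, at 42.5 to 66.7% in deletion ESCs and 54.1 to 74.6% in control ESCs. With both arms and the hairpin entry summed, 3 of the 8 hairpins and 15% of all hairpins tested (21.9% lower) were higher in deletion iNs than in control iNs (Mir1188 0.87 ± 0.13, Mir540 0.42 ± 0.09, Mir770 0.31 ± 0.10), at an adjusted p under 0.05 in edgeR. In deletion against control ESCs Mir433 was lower (−0.97 ± 0.24), as were 10.2% of all hairpins tested, with 1.99% higher. Mir337 was at −0.22 ± 0.12 there (adjusted p = 0.263), so the fall of miR-337-3p in ESCs was not found for the hairpin as a whole. All 8 hairpins were higher in deletion iNs than in deletion ESCs, where 41.2% of all hairpins were higher and 47.7% lower, and 6 of 8 were higher in control iNs than in control ESCs, where 43.6% were higher and 45.6% lower.

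The transcripts that carry or flank the hairpins were measured in RNA-seq. Meg3, which hosts miR-770, had 1840, 2106 and 2066 CPM in deletion iNs, 1168, 1217 and 1689 in control iNs, 246.1, 228.4 and 231.4 in deletion ESCs and 325.5, 283.2 and 296.8 in control ESCs. It was higher in control iNs than in control ESCs (2.16 ± 0.12), as miR-770-3p was, which had a log2 difference of 4.60. Of the other noncoding transcripts of the domain, B830012L14Rik (−0.52 ± 0.09) and Mirg (−0.34 ± 0.08) were lower in control iNs than in control ESCs. Meg3 was higher in deletion than in control iNs (0.56 ± 0.11) and lower in deletion than in control ESCs (−0.38 ± 0.05, adjusted p = 0.0092, edgeR). The call of Meg3 in ESCs was lost without deletion ESC library B (adjusted p = 0.0692) or with all 12 libraries in 1 fit (adjusted p = 0.116). Of all genes tested, 43.9% were higher and 45.1% lower in control iNs than in control ESCs, 12.4% higher and 13.3% lower in deletion than in control iNs, and 0.544% lower in deletion than in control ESCs.

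Rian, which hosts miR-1188 and many small nucleolar RNAs, had 1083, 1233 and 1139 CPM in deletion iNs, 968.6, 892.7 and 1008 in control iNs, 337.1, 397.3 and 395.7 in deletion ESCs and 458.5, 488.5 and 512.5 in control ESCs. Its log2 differences were 0.97 ± 0.06 between control iNs and control ESCs, 0.27 ± 0.06 between deletion and control iNs, and −0.38 ± 0.07 between deletion and control ESCs. The last was lost in 5 of the 6 fits without 1 library. miR-1188-5p differed by 1.75, 0.88 and 0.33 in the same comparisons, so in ESCs the host was lower while the microRNA had a positive value that did not pass. B830012L14Rik, a noncoding transcript of the domain, showed the same signs as Meg3 with the deletion (0.85 ± 0.11 in iNs and −0.66 ± 0.06 in ESCs). The difference between cell types passed for Meg3 (0.92 ± 0.15), Rian (0.64 ± 0.10) and B830012L14Rik (1.49 ± 0.14), in the same direction as for miR-433-3p and miR-136-3p; the background was 5.01% positive and 8.5% negative.

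Mirg, the host of the deleted cluster, had 2, 0 and 2 counts in deletion iNs and 455, 685 and 648 in control iNs, and 0 in all 3 deletion ESC libraries against 932, 672 and 789 in control ESCs, as the labels state. Rtl1, the gene opposite most of these hairpins, had 8, 7 and 11 counts in deletion iNs, 3, 9 and 3 in control iNs, 10, 2 and 2 in deletion ESCs and 5, 1 and 5 in control ESCs, too few to be tested. Dlk1 was lower in deletion than in control iNs (−1.28 ± 0.14), and its difference in ESCs (−0.35 ± 0.12) missed the threshold. Dio3, at the other end of the domain, was at 0.09 ± 0.09 and −0.79 ± 0.36 and passed in neither.

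**Figure D5:**
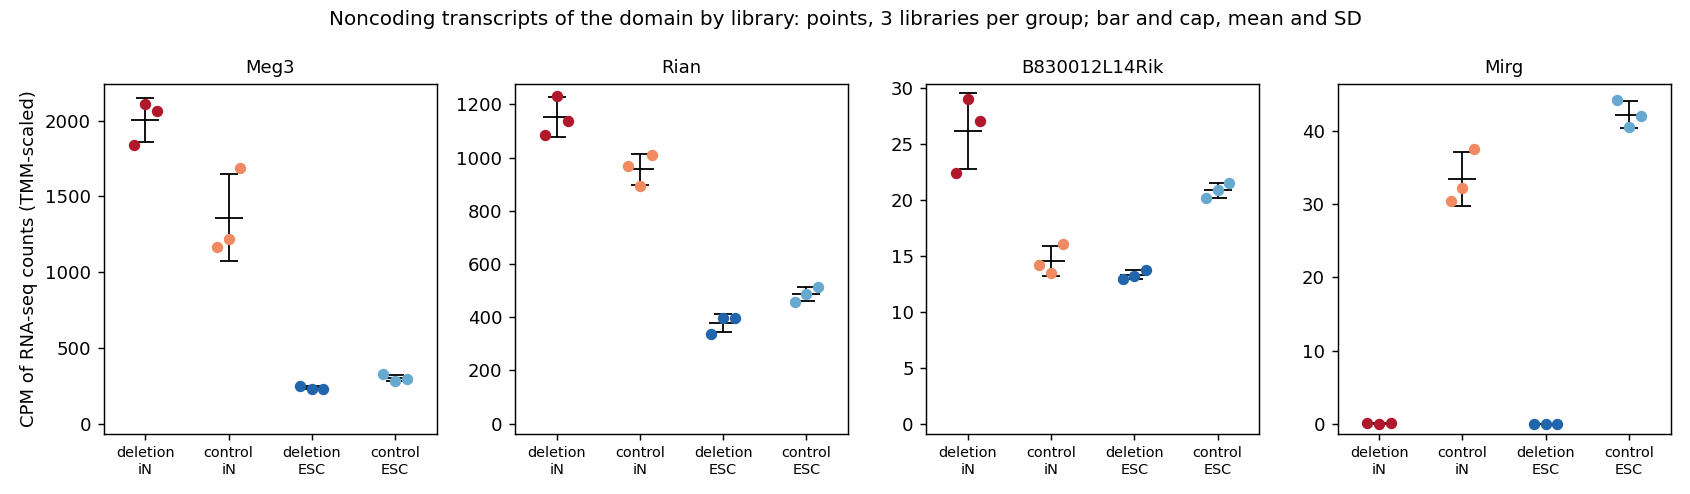
CPM of Meg3, Rian, B830012L14Rik and Mirg in RNA-seq libraries of deletion iNs, control iNs, deletion ESCs and control ESCs, on linear axes from 0; points are libraries A to C from left to right, and bars and caps the mean and SD. Meg3 lies at 1840 to 2106 CPM in deletion iNs and 1168 to 1689 in control iNs, and Mirg at or near 0 in both deletion groups.

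Ago2 binding at the hairpins came from the authors' lists of CLIP regions in iNs at day 10. HA-tagged Ago2 was pulled down there after UV crosslinking and set against its own input or a pulldown from cells with untagged Ago2. The lists hold 22400 distinct regions. The fold and −log10 p values are the authors', with no values per replicate, so no test was run on them. Of the 8 hairpins, 5 had a region on their strand, and 3 had one with a log2 fold of at least 3 and a −log10 p of at least 3 over the untagged pulldown, which 3.67% of all regions reached. None of the hairpins of other upstream microRNAs (12) did, though 4 of them had a region.

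The hairpins of the 3 are printed with the bases of the regions in capitals, to show which arm each region covers.
Mir127: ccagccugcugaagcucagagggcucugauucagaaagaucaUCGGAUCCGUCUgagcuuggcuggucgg
Mir434: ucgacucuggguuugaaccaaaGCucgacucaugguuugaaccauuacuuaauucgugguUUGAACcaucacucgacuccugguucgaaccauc
Mir337: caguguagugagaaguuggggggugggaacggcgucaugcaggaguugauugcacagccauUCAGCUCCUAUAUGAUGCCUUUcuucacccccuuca
The region in Mir127 (chr12:109592888-109592899, mm10, plus strand) starts at the first base of miR-127-3p and holds its seed. Its log2 fold was 5.25 over the untagged pulldown (rank 56 of 22400) and 6.66 over input (rank 45). The region in Mir337 (chr12:109585850-109585871) is exactly miR-337-3p, at 4.31 over the untagged pulldown and 5.72 over input.

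Mir434 had a region on each arm. That on miR-434-5p covers its first 2 bases (chr12:109594528-109594529; 5.04 over the untagged pulldown, 5.44 over input), and that on miR-434-3p lies in its seed (chr12:109594566-109594571; 2.99 and 6.4). The region over miR-433-3p (chr12:109591778-109591816) was 1.11 over the untagged pulldown and 3.51 over input. The 3 regions at the 5′ edge of Mir770 touched neither arm and were at −0.12, −0.24 and −0.33 over the untagged pulldown. No region lay over the hairpins of miR-136, miR-540 or miR-1188. miR-136-3p was more abundant than miR-337-3p in the small RNA libraries of both control and deletion iNs. For this pair the presence of a region did not follow the order of counts. The CLIP samples are separate ones, with 2 replicates per group, labelled by Ago2 tag and not by Mirg genotype. Inside the span of Rtl1 the lists held 35 regions on the plus strand and 0 on the minus strand, the strand of the Rtl1 messenger RNA. That span overlaps the end of Meg3 (to chr12:109571729) and the start of Rian (from chr12:109603945). The plus-strand count may thus take in regions of Meg3 and Rian. Rtl1 itself had only 3, 9 and 3 RNA-seq counts in control iNs.

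The microRNAs outside the 10 whose levels ran closest to the 3 most abundant ones were found by the root mean square difference of centred log2 CPM over the 12 libraries, among 531 microRNAs. Closest to miR-127-3p were miR-9-5p (0.158), miR-26b-5p (0.167) and let-7g-5p (0.17), where the median over all candidates was 1.37. Closest to miR-434-5p were miR-301b-3p (0.159), miR-30a-5p (0.161) and miR-192-5p (0.173). Closest to miR-434-3p were miR-1839-5p (0.197), miR-23b-3p (0.198) and miR-340-5p (0.198). None of these 9 is encoded in the upstream region or in the deleted cluster.

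Of the other microRNAs from hairpins between Meg3 and Mir379, 4 of 13 tested were higher and 1 lower in deletion than in control iNs. Over all microRNAs tested 16.9% were higher and 24.2% lower there, and 19.1% and 14.1% without the cluster microRNAs. In deletion against control ESCs, 2 of 12 were lower and none higher. Over all tested 13.8% were lower and 2.44% higher there, and 2.76% each without the cluster microRNAs. In control iNs against control ESCs, 7 of 14 were higher and 5 lower, and in deletion iNs against deletion ESCs 8 of 14 were higher and 2 lower. Over all tested, 41.5% were higher and 44.2% lower in the control pair, and 41.3% and 46.6% in the deletion pair. None of 15 passed the interaction, where 2.03% of all tested passed as positive and 3.51% as negative. For the 10 microRNAs described above these counts were 6 and 0, 2 and 0, 7 and 0, and 10 and 0, so the microRNAs lower in iNs than in ESCs were all outside the 10; that difference between the lists was not tested.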

How the data were processed

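Small RNA-seq (12 libraries), rRNA-depleted RNA-seq (12) and Ago2 seCLIP (8, deposited as region lists) were used. Tools listed without roles in the submitters' processing notes are RSEM 1.2.30, STAR 2.4.1d, cutadapt 1.4.2, SAMtools and DESeq2, and the build is mm10. The deposited files hold expected counts and posterior mean counts estimated by RSEM, per the file headers. The deposited tables of the authors' own comparisons hold, per the file headers, log2 fold changes and adjusted p-values. They also hold a signal, the normalised count that the authors averaged over libraries. The deposited region lists hold the authors' −log10 p and log2 fold per region; 32 of 22432 entries were duplicates and were dropped. Strand settings and annotation release are not given in the sources used here.

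Accessions were named by matching the authors' normalised means to scaled posterior mean counts (relative tolerance 1e-08), which named 828 of 1907 accessions with 99.99% of mature counts. Copies of a mature sequence were summed. Rounded expected counts went into edgeR 4.0.16 (R 4.3.3), scaled by TMM and filtered by filterByExpr at a minimum of 10 counts. Its quasi-likelihood F test was used with Benjamini-Hochberg adjustment over all features (threshold 0.05), and DESeq2 1.42.0 was an alternative. An SE is the log2 fold change divided by the square root of F. Each pairwise fit used 6 libraries and the interaction 12. Arm ratios and shares were compared with exact permutation tests in SciPy 1.17.1. The code was tested on simulated data.

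The members, lists and tests were chosen with earlier results of these data known. The 10 members and the transcripts Meg3, Rian, Mirg, Rtl1, B830012L14Rik, Dlk1 and Dio3 are named by rule, as are up to 4 other upstream microRNAs past the threshold per comparison (largest change, mean log2 CPM of at least 2) and the 3 nearest microRNAs of the 3 most abundant members. Each library left out, other scalings, filters, tools, a replicate block and hairpin sums (the last added after seeing the data) were the alternatives.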

Additional observations from a re-analysis of the deposited data

Results flagged for a closer look

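The effect of the deletion differed between iNs and ESCs for 2 of the 10 microRNAs by the interaction test. The difference was 1.42 ± 0.34 on the log2 scale for miR-433-3p and 0.76 ± 0.22 for miR-136-3p (edgeR adjusted p = 0.0206 and 0.0487, 12 libraries). Across 19 alternative settings that of miR-433-3p stayed positive and passed in 13 (0.93 to 1.58, adjusted p = 0.0011 to 0.114), and that of miR-136-3p stayed positive and passed in 2 (0.32 to 0.88, adjusted p = 0.0222 to 0.554).

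The same test passed for 4 transcripts of the domain in RNA-seq. The difference was 0.92 for Meg3, 0.64 for Rian and 1.49 for B830012L14Rik, each higher with the deletion in iNs and lower in ESCs. It was −0.95 for Dlk1, which fell in iNs and did not pass in ESCs.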

How the results depend on the processing

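The rises in iNs against ESCs, and the rises of miR-1188-5p and miR-540-3p with the deletion in iNs, kept direction and call in the alternatives, except for miR-540-3p, miR-136-5p and miR-337-3p as given with their values. In deletion against control iNs the count of higher members was 2 (and of lower 2) with scaling to all features, 2 with all 12 libraries in 1 fit, 4 with DESeq2's size factors, DESeq2's Wald test, no filter or TMM without the cluster, and 2 to 8 with a library left out, against 6. The count of lower members in ESCs (2) was 1 with scaling to all features, 3 with DESeq2's Wald test or no filter, 5 with all 12 libraries in 1 fit and 0 to 2 with a library left out. The interaction count (2) was 1 with DESeq2's size factors, 4 with its Wald test, 0 with scaling to all features, 1 with TMM without the cluster, 1 with posterior mean counts and 0 to 3 with a library left out. With a library left out, the counts of higher members were 6 to 7 in control iNs against control ESCs and 8 to 10 in deletion iNs against deletion ESCs, and the domain transcripts past the test in ESCs numbered 2 to 4. The arm ratio difference between iNs and ESCs was −0.61 to −0.45 for miR-434 and −0.63 to −0.39 for miR-136. Without the cluster in the denominator, the member share differed by 2.37 percentage points between control iNs and control ESCs, 0.35 between the iN genotypes and −0.56 between the ESC genotypes. Regions past both thresholds lay over 3 hairpins in place of 5. The causes were not tested.

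Scaling to all features moved the median of all microRNAs by 0.484 in control iNs against control ESCs and 0.126 in deletion iNs against deletion ESCs, and DESeq2's size factors by 0.165 in control iNs against control ESCs; the members' medians were then 1.13, 1.431 and 0.805. TMM without the cluster moved the interaction's median by −0.195 and gave 5 positive and 39 negative microRNAs in place of 11 and 19, DESeq2's Wald test 21 and 34, and posterior mean counts 6 and 25. With all 12 libraries in 1 fit, 43 microRNAs were higher and 100 lower in deletion iNs in place of 73 and 105, and 21 higher and 81 lower in deletion ESCs in place of 11 and 62.

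Signs turned for values that had not passed, and for miR-434-5p in iNs. miR-337-3p in control iNs against control ESCs was 0.09 with DESeq2's size factors, 0.11 with its Wald test, 0.44 with scaling to all features, 0.02 with TMM without the cluster and −0.20 to 0.12 with a library left out. There miR-136-5p was 0.28 with scaling to all features and −0.52 to 0.09 with a library left out, and miR-433-3p −0.20 to 0.28. In deletion against control iNs, scaling to all features gave −0.07 for miR-127-3p and −0.03 for miR-434-5p. In ESCs, miR-434-5p was 0.00 with DESeq2's size factors, −0.01 with TMM without the cluster and −0.06 to 0.15 with a library left out, and miR-770-3p −0.10 to 0.32. In the interaction, scaling to all features gave −0.09 for miR-434-3p, −0.18 for miR-434-5p and −0.12 for miR-770-3p, TMM without the cluster 0.00 for miR-434-5p, and miR-770-3p was −0.04 to 0.52 with a library left out.

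Libraries of 1 letter deviated together from their group means by r = 0.353, 0.015 and 0.288 (A, B, C, across microRNAs) in the ESC deletion comparison. In the other comparisons r lay between −0.134 and 0.119. In RNA-seq of the ESC deletion comparison r was 0.268, 0.07 and 0.094 (A, B, C, across genes). The main fits did not take the letters as pairs, so in ESCs their spread can hold a part shared by letter. With the replicate block, 6 members were lower in ESCs in place of 2, the added ones being miR-136-5p, miR-136-3p, miR-434-3p and miR-127-3p (adjusted p = 3.28e-11, 1.41e-05, 0.000366 and 0.00667, edgeR), and over all microRNAs 60 were higher and 119 lower in place of 11 and 62. In the interaction the block left 2 members past the threshold, but miR-136-3p missed it (adjusted p = 0.064) and miR-136-5p passed (1.17, adjusted p = 0.0476). The member calls of the other comparisons did not change. Seed matches in CLIP regions were not run, for want of a genome. Depth limits the statements on miR-770-3p, miR-3070-2-3p and miR-370-5p in ESCs and on Rtl1.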

Other observations

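Among the other microRNAs of the upstream hairpins, the arms of miR-431 went in opposite directions between neurons and stem cells (miR-431-5p was chosen after its values were seen). miR-431-3p had 517, 538.3 and 553.9 CPM in deletion iNs against 51.72, 67.31 and 95.79 in deletion ESCs, and 539, 481.5 and 556.5 in control iNs against 31.91, 53.85 and 62.94 in control ESCs (log2 fold change 2.85 ± 0.22 and 3.37 ± 0.24, SE, n = 3 per group). miR-431-5p had 1210, 1349 and 1558 CPM in deletion iNs against 3444, 3076 and 2769 in deletion ESCs, and 2137, 1674 and 1850 in control iNs against 4031, 4166 and 3837 in control ESCs (−1.23 ± 0.16 and −1.09 ± 0.14). Both changes passed in both genotypes, and no libraries overlapped. miR-431-5p was also lower in deletion than in control iNs (−0.44 ± 0.11, edgeR adjusted p = 0.00126).

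miR-370-3p, from a hairpin inside Rian, was the upstream microRNA outside the 10 with the largest rise in neurons: 16777, 13859 and 10314 CPM in deletion iNs against 738.4, 933.5 and 1656 in deletion ESCs (3.55 ± 0.26), and 9129, 8722 and 9932 in control iNs against 441.8, 724.1 and 1017 in control ESCs (3.65 ± 0.26). It was higher in deletion than in control iNs (0.57 ± 0.12), as were miR-341-3p (0.58 ± 0.12), miR-673-5p (0.62 ± 0.13) and miR-673-3p (0.92 ± 0.37, at 11.97, 12.26 and 12.38 CPM against 6.911, 6.641 and 5.881). With miR-1188-5p, 3 microRNAs of the hairpins inside Rian were thus higher in deletion iNs, and miR-370-5p (0.59 ± 0.27, edgeR adjusted p = 0.0809) did not pass. miR-3070-2-3p (2.28 ± 0.40) and miR-370-5p (2 ± 0.37) were higher in control iNs than in control ESCs. Both were low in control ESCs, so these folds rest on few counts. miR-3070-2-3p had 20.73, 25.73 and 24.99 CPM in control iNs against 2.454, 3.437 and 7.453 in control ESCs. The values of miR-370-5p were 18.43, 20.75 and 16.17 CPM against 3.682, 5.728 and 4.141. In deletion against control ESCs, miR-433-5p (−1.01 ± 0.27) and miR-540-5p (−0.99 ± 0.27) were lower.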
